A study of Mus musculus with 3 samples.

Results

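Kit, its ligand Kitl and the transcription factor gene Mitf were examined for sites where RNA was recovered with Tet2 by cross-linking and immunoprecipitation (CLIP). Members were all deposited peaks whose midpoint lay in the span of one of these 3 genes on the mouse build mm10. There were 13 such peaks among 8196 (0.159%), of which 10 lay in Kit, 2 in Kitl and 1 in Mitf. Replicate 1 held 9 of them, replicate 2 held 1 and replicate 3 held 3.

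The study asked which RNAs Tet2, an enzyme that oxidises 5-methylcytosine, binds in mouse mast cells. Bone marrow of C57BL/6 mice was cultured for 4 to 6 weeks with 10 ng/ml interleukin-3 and 5 ng/ml stem cell factor, the product of Kitl. The resulting mast cells, over 97.5% positive for the receptors FcεRI and Kit, were cross-linked with ultraviolet light at 400 and then 200 mJ per cm2. Endogenous Tet2 was pulled down with an antibody in 3 replicate libraries that form 1 group, and no control pull-down or input was analysed here.

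Stem cell factor exists as a membrane-bound and a soluble protein and is made mainly by stromal cells such as fibroblasts. It joins Kit receptors into pairs, and the paired kinases phosphorylate each other and start signalling through PI3 kinase, Ras-MAP kinase, Src family kinases and JAK-STAT proteins. Mast cells keep Kit when they mature and depend on it for survival. Mitf is a basic helix-loop-helix leucine zipper factor with several promoters, and mast cells of Mitf mutant mice are few and make little Kit.

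Replicates 1, 2 and 3 held 3019, 2800 and 2377 peaks. Heights are the authors' normalized values, given here as multiples of the smallest step between them (a unit), of which the libraries hold 19213, 18270 and 15431 in all. The median peak stood at 4 units in each library and the lowest at 2, 2 and 3 units. The sources used here do not say whether 1 unit stands for 1 read. With 1 group and no control, no contrast could be tested, and the values below are descriptions of 3 libraries.

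The starts of Kit and Kitl are shown because peaks of replicates 1 and 3 lay just downstream of both. The windows run from 250 bases before to 50 bases after the first start that the RefSeq promoter table (GRCm38.p6, the same coordinates as mm10) lists for each gene. Lower case marks the upstream bases and capitals mark the first 50 transcribed bases, 5′ to 3′ on the plus strand. The Kit window is chr5:75574737-75575036 and the Kitl window is chr10:100015571-100015870.
Kit: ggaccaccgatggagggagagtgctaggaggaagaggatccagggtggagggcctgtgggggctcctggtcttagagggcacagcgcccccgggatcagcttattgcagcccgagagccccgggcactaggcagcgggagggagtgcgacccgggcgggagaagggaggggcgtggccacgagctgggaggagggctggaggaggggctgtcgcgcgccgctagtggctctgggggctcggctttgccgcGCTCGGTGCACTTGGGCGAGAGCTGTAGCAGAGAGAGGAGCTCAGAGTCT
Kitl: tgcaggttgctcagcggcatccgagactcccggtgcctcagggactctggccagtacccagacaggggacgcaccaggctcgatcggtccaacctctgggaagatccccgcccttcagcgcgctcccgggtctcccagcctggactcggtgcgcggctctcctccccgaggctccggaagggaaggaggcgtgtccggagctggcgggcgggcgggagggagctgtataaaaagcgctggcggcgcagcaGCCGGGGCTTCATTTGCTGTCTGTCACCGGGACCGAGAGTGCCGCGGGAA

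Both windows were rich in G and C, at 69.0% in Kit and 68.7% in Kitl, against a median of 52.7% over 32851 windows of RefSeq genes. They held 20 CpG in Kit and 28 in Kitl, against a median of 7. Motifs were searched by their letters on both strands. The GC box GGGCGG was found 1 time in Kit, 98 bases before the start, and 3 times in Kitl, at 143, 45 and 41 bases before it, the last pair overlapping. It occurs in 35.7% of the windows. The TATA box TATAAA was found in Kitl, 25 bases before the start, and in 13.6% of the windows, but not in Kit. The E-box letters CANNTG, the general form of the sites that Mitf and its relatives bind, were found 1 time in each gene, 8 bases after the start in Kit and 10 bases after it in Kitl, and in 72.3% of the windows. The letters GATAA, a core of GATA factor sites, were in neither window and in 25.4% of all. No member peak overlapped a window: the nearest peaks began 379 bases past its end in Kit and 80 bases past it in Kitl.

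Each of the 3 genes held a peak, Kit in all 3 libraries, Kitl in 2 and Mitf in 1. Among 21900 protein-coding genes, 14.1% held a peak in any library, 6.35% in over 1 and 3.16% in all 3. The spans of Kit, Kitl and Mitf measure 81736, 84802 and 214359 nt. Of 4223 protein-coding genes with spans of 50000 to 250000 nt, 21.5% held a peak and 4.55% did so in every library. Kit, Kitl and Mitf were chosen with earlier results of these data known, so setting them beside these shares is no test. None of the 13 peaks lay in the span of another gene, and none of the miRNAs in the RefSeq table lay inside the 3 spans. Peaks were 20 to 106 nt wide, and 9 of the 13 stood at 3 units, near the lowest height that the lists contain.

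**Figure D1:**
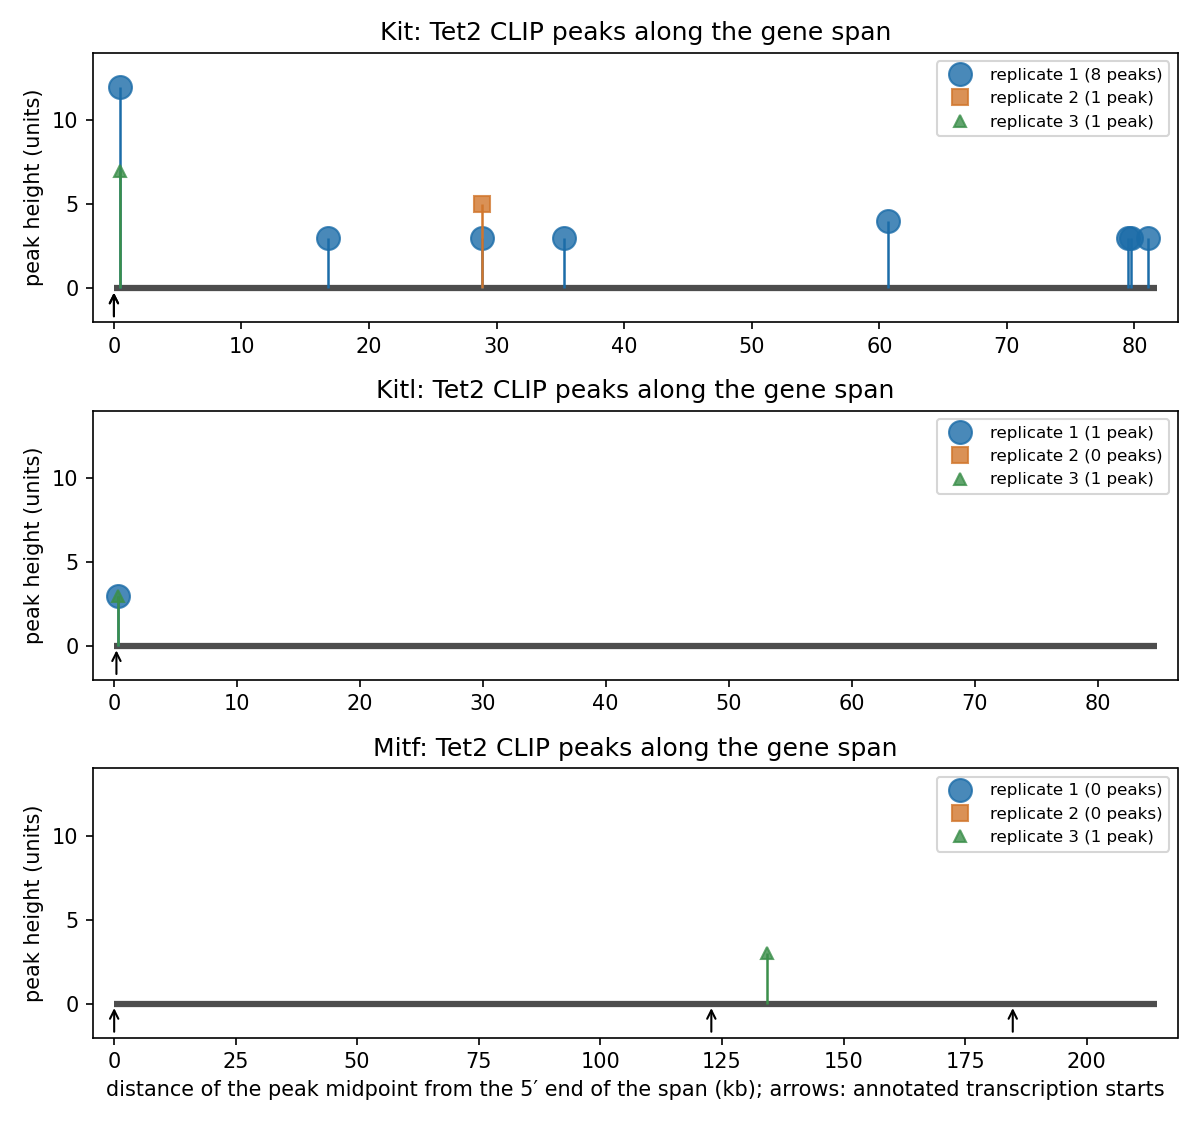
Peaks along the spans of Kit, Kitl and Mitf. The x axis gives the distance of the peak midpoint from the 5′ end of the span in kb and the y axis the peak height in units, points are single peaks coloured by replicate, and arrows mark the transcription starts of the RefSeq promoter table. Kit carried 8, 1 and 1 peaks in replicates 1, 2 and 3, Kitl carried 1 peak at the same place in replicates 1 and 3, and Mitf carried 1 peak in replicate 3.

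Kit, the receptor (gene ID 16590, chromosome 5, 75574987 to 75656722, plus strand), held 8 peaks in replicate 1, 1 in replicate 2 and 1 in replicate 3. Its summed height was 34, 5 and 7 units in replicates 1, 2 and 3. That is 0.177%, 0.0274% and 0.0454% of the height of each library, a mean of 0.0832% ± 0.0817 (SD, n = 3), so the spread was about as large as the mean. Replicate 1 stood well above the other libraries, which lay close together. As a share of all peaks of the library, Kit had 0.265% in replicate 1 (exact 95% interval 0.114 to 0.521), 0.0357% in replicate 2 (0.000904 to 0.199) and 0.0421% in replicate 3 (0.00107 to 0.234). The intervals overlapped. They are Clopper-Pearson intervals that cover counting error only and treat peaks of 1 gene as independent.

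The tallest Kit peak lay close to the transcription start. In replicate 1 it spanned 75575468 to 75575489, that is 481 to 502 nt after the first start, and reached 12 units. Of the 3019 peaks of that library, 218 (7.22%) were as tall or taller. The only Kit peak of replicate 3 spanned 75575416 to 75575457, 429 to 470 nt after the same start, and reached 7 units, a height that 412 of 2377 peaks (17.3%) reached. These peaks did not overlap. They were 10 nt apart, with midpoints 42 nt from each other, and together covered a stretch of 74 nt. Replicate 2 held no peak there. The start peak made up 35.3% of the Kit height in replicate 1.

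A second place in Kit carried a peak in replicates 1 and 2. It lay 28834 nt after the nearest listed start, at 35.3% of the span, from 75603825 to 75603917 in replicate 1 (3 units) and from 75603828 to 75603917 in replicate 2 (5 units). Both ended on the same base and shared 90 nt. It was the only Kit peak of replicate 2, where 1035 of 2800 peaks (37.0%) were as tall or taller, and replicate 3 held none there. Of the 9 loci that the 10 Kit peaks formed, where peaks that overlap by at least 1 nt make a locus, this was the 1 locus present in over 1 library, and no Kit locus was present in all 3. Over the whole series, 26.2% of 5969 loci were present in over 1 library.

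The other Kit peaks were found in replicate 1 alone. Those inside the gene lay at 75591727 to 75591753 (3 units), 75610207 to 75610312 (3 units) and 75635602 to 75635703 (4 units). Another 3 lay in the last 2268 nt of the span, at 75654455 to 75654527, 75654660 to 75654696 and 75656038 to 75656070, each 3 units tall. The 3′ end of the span thus held 3 of the 8 replicate 1 peaks and 9 of their 34 units. Of the replicate 1 peaks in protein-coding genes with spans of 50000 to 250000 nt, 8.77% of 661 had their midpoint in the last 3000 nt, a set that includes Kit itself. The last 3000 nt of Kit held no peak in replicates 2 and 3, where the share over such genes was 7.91% and 6.03%. Positions were planned in percent of the span, so this window, and the 1000 nt window after starts used below, were additions to the plan. Exons were not used here, so none of these positions is assigned to an exon, an intron or a UTR.

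Most Kit peaks were low. Of the 8 replicate 1 peaks in Kit, 7 stood at 3 or 4 units, and 1 of these overlapped a peak of another library. Over all 1901 replicate 1 peaks of up to 4 units, 29.4% lay in a locus present in over 1 library, and 62.3% of the 1118 peaks of 5 units or more did. Kit had 3 peaks of 5 units or more, 1 per library, and that of replicate 2 alone overlapped a peak of another library. Over all peaks of this height, 67.8% in replicate 2 and 74.8% in replicate 3 did. The Kit peaks of replicates 1 and 3 sat beside each other near the start.

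**Figure D2:**
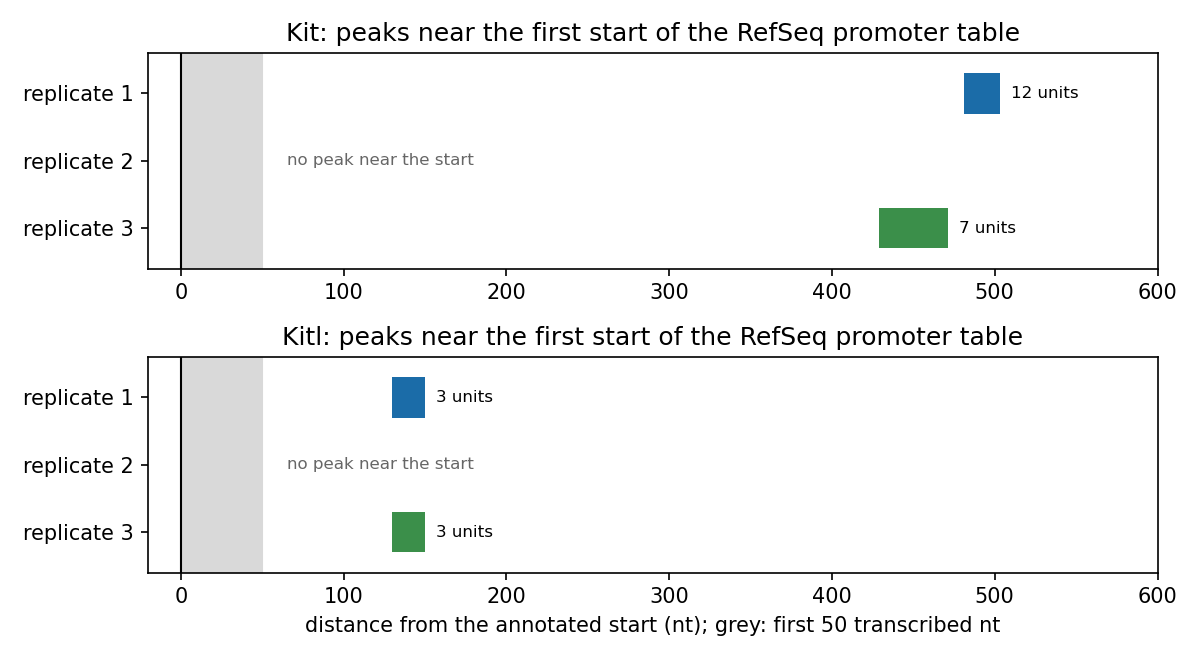
Peaks near the starts of Kit and Kitl. The x axis gives the distance in nt from the first start of the RefSeq promoter table, rows are the 3 replicates, bars run from the first to the last base of a peak, and labels give its height in units. The Kit peaks of replicates 1 and 3 lay side by side from 429 to 502 nt, and the Kitl peaks of replicates 1 and 3 covered the same bases from 130 to 149 nt.

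The uneven spread of the Kit peaks over the libraries was set beside other genes with many peaks. In replicate 1, 12 protein-coding genes (0.0548% of 21900) held at least 8 peaks, among them Kit. The other 11, which include Gata2, Csf2rb2 and Myh9, held 7 to 15 peaks in replicate 2 and 4 to 11 in replicate 3. Of the 31 genes with at least 5 peaks in replicate 1, Kit was the 1 gene (3.23%) with at most 1 peak in each of the other libraries. For Kit, the mean number in replicates 2 and 3 was 12.5% of the number in replicate 1, against a median of 77.8% over the 31 genes. Genes of the mirror-image kind also existed: 2 of 40 genes with at least 5 peaks in replicate 2, and 1 of 24 in replicate 3, had at most 1 peak in each other library. The excess of Kit in replicate 1 rested on low peaks. With a minimum of 4 units Kit held 2, 1 and 1 peaks in replicates 1, 2 and 3, and with a minimum of 5 units it held 1 in each. The limits of 8, 5 and 1 peaks were chosen after the Kit values were seen, and the cause of the difference between the libraries was not tested.

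By distance between the numbers of peaks in the 3 libraries, the genes nearest to Kit were Rpl13a, Zfp36l2, Ago2, Prrc2b and Adgrl1. Rpl13a, a protein of the large ribosomal subunit, held 6, 1 and 3 peaks in replicates 1, 2 and 3 (Euclidean distance from Kit 2.83 peaks). Zfp36l2, an RNA-binding protein that promotes mRNA decay, held 5, 1 and 2 peaks (3.16) with summed heights of 31, 4 and 8 units, close to the 34, 5 and 7 units of Kit. Ago2, the slicing Argonaute of the RNA interference machinery, held 5, 2 and 2 peaks (3.32). Prrc2b held 5, 3 and 1 (3.61), and Adgrl1, an adhesion G protein-coupled receptor, held 5, 2 and 3 (3.74), level with Arhgdia in number but nearer in summed height. The likeness rests on 3 libraries and describes number only.

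**Figure D3:**
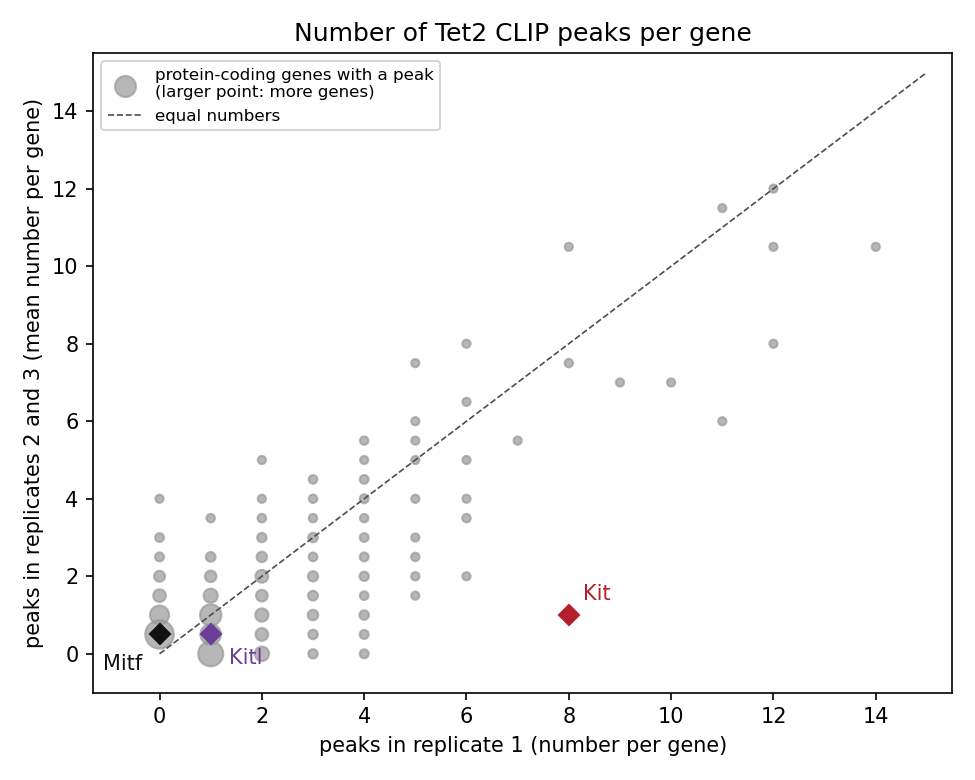
Number of peaks per gene in replicate 1 (x axis) against the mean number in replicates 2 and 3 (y axis). Grey points are protein-coding genes with a peak, larger where more genes share a value, diamonds mark Kit, Kitl and Mitf, and the dashed line marks equal numbers. Kit, at 8 and 1, lies to the right of the line, and the other 11 genes with at least 8 peaks in replicate 1 held at least 7 peaks in replicate 2 and 4 in replicate 3.

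Kitl, the gene of stem cell factor (gene ID 17311, chromosome 10, 100015615 to 100100416, plus strand), held 1 peak in replicate 1, none in replicate 2 and 1 in replicate 3. Both peaks ran from 100015951 to 100015970, a stretch of 20 nt with identical ends. They lay 130 to 149 nt after the start that the promoter table lists and 0.4% into the span, with no other peak over the remaining gene. Each stood at 3 units, which is 0.0156% of the height of replicate 1 and 0.0194% of that of replicate 3 (mean over the libraries 0.0117% ± 0.0103, SD, n = 3). A height of 3 units is the lowest in replicate 3, and 3018 of 3019 peaks in replicate 1 were as tall or taller. The place of the Kitl peak was shared exactly, while its height lay at the edge of what the lists hold. Of all replicate 3 peaks of up to 4 units, 38.3% lay in a locus present in over 1 library.

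Mitf, the transcription factor (gene ID 17342, chromosome 6, 97807002 to 98021360, plus strand), held 1 peak, in replicate 3 only. It spanned 97941197 to 97941218, 22 nt, and reached 3 units, or 0.0194% of the height of that library, again the lowest height of replicate 3. The promoter table lists 3 starts for Mitf, at 97807058, 97929817 and 97991783. The peak lay 134139 nt after the first and 11380 nt after the second, at 62.6% of the span and upstream of the third. No library held a peak within 1000 nt after any of the 3 starts. In 2 of the 3 libraries the gene, the longest of the 3 by span, held no peak at all.

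Of the 3 genes together, 4 of the 13 peaks had their midpoint within 1000 nt after a listed start: 1 of Kit in each of replicates 1 and 3, and the Kitl peak in the same libraries. Over all protein-coding genes with spans of 50000 to 250000 nt and a listed strand, 28.2% of 1782 peaks did so. The share among the members was therefore near the background and is no feature of their own. The 1 member peak of replicate 2 was not near a start, and 27.0% of 607 replicate 2 peaks in genes of this length were.

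Genes that act downstream of Kit, or that restrain it, held peaks in 27 of 62 cases (43.5%). Of all protein-coding genes 14.1% did, and of those with spans of 50000 to 250000 nt 21.5%. RNA levels were not analysed here, so this list and the later ones are not set against expressed genes alone. Socs1, an inhibitor of JAK kinases that also binds Kit, had the tallest peak, at 11, 18 and 6 units in replicates 1, 2 and 3. Fes, a cytoplasmic tyrosine kinase, reached 9, 4 and 3 units with 2, 3 and 4 peaks. Pik3cd, the catalytic PI3 kinase subunit p110δ, reached 6, 8 and 3 units with 5, 5 and 1 peaks. Gab2, an adaptor that joins Kit to PI3 kinase, held 1 peak of 6 units in replicate 2 alone. The same top height of 6 units was reached by the kinase Rps6ka3 (6, 5 and 6 units), the GTPase Rac2 (4, 6 and 3) and the MAP kinase Mapk14 (5, 6 and 0). Socs1, Fes, Pik3cd, Rps6ka3 and Rac2 were the 5 of the 62 genes found in every library, which 3.16% of all protein-coding genes were. Peaks were found in 22 genes of the list in replicate 1, against 11 each in replicates 2 and 3, so this list, like Kit, held more in replicate 1. The share of all protein-coding genes with a peak was 8.55%, 8.04% and 7.02% in the 3 libraries. Whether the list and Kit differed between libraries for a common reason was not tested. Of the 27 genes, 15 held peaks in 1 library only, among them Lyn, the Src family kinase next to Kit and FcεRI (1 peak of 3 units, replicate 1). Over all protein-coding genes, 3086 held a peak and 1391 of them in over 1 library, so 1 library only was the commoner case there too.

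Among the class III receptor kinases, to which Kit belongs, and their ligands, 6 of 13 genes held a peak. Without Kit and Kitl themselves, 4 of 11 (36.4%) did. The share was 14.1% of all protein-coding genes and 21.5% of those with spans of 50000 to 250000 nt. Of the receptors, only Kit and Pdgfrb, a platelet-derived growth factor receptor, did, Pdgfrb with 1 peak of 3 units in replicate 1. Flt3, Csf1r and Pdgfra held none. Among the ligands, Flt3l, the ligand of Flt3, held 2, 1 and 2 peaks in replicates 1, 2 and 3, all of 3 units, which makes Kit and Flt3l the members with a peak in every library. Csf1 and Pdgfa each held 1 peak of 3 units in replicate 3, that of Csf1 inside the span of another gene as well. Kit was thus the only gene of this list with a peak above 3 units. Mitf, with its 1 peak of 3 units, was the only one of the 4 MiT/TFE family genes with a peak. Its relatives Tfeb, Tfe3 and Tfec held none, which is no feature of the family where 14.1% of all protein-coding genes held a peak.

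Transcription factors that bind or act at the Kit gene held peaks in 11 of 18 cases (61.1%), or 10 of 17 without Mitf. Of all protein-coding genes 14.1% did, and of those with spans of 50000 to 250000 nt 21.5%. Gata2, which drives mast cell and progenitor genes, held 14, 12 and 9 peaks in replicates 1, 2 and 3, some in the span of another gene as well, with the tallest at 18, 11 and 15 units. Runx1, a founder factor of blood stem cells, held 7, 7 and 4 peaks of at most 7, 13 and 8 units. Ldb1, a cofactor that holds GATA and Tal1 complexes together, reached 7, 10 and 7 units with 4, 5 and 3 peaks. Zbtb7a, a zinc finger repressor, reached 9, 4 and 4 units. The list held peaks in 8 genes in each library, and 6 genes had peaks in all 3, which 3.16% of all protein-coding genes did. Its numbers of peaks, 33, 33 and 22, did not share the excess of Kit in replicate 1.

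Genes reported as targets of Mitf in mast cells, melanocytes or osteoclasts, Kit among them, held peaks in 10 of 23 cases (43.5%). Without Kit, 9 of 22 did, against 14.1% of all protein-coding genes and 21.5% of those with spans of 50000 to 250000 nt. Slc18a2, the transporter that loads histamine into granules, reached 11, 13 and 9 units with 4, 4 and 5 peaks. Hdc, the enzyme that makes histamine, held 1 peak in each library, of 9, 4 and 7 units. Cdk2, a cell cycle kinase, held 1 peak of 9, 8 and 5 units, which lies in the overlapping span of Pmel, a pigment granule protein, as well. Cdkn1a, the cell cycle inhibitor p21, held 3, 2 and 0 peaks with the tallest at 4, 9 and 0 units. Prkcb, a protein kinase C, also had its tallest peak at 9 units (9, 3 and 3). Of these 10 genes, 7 held a peak in every library, Kit among them, and 3.16% of all protein-coding genes did. The numbers of genes were 9, 9 and 8 in replicates 1, 2 and 3. Kit, Hdc, Cpa3, Tpsb2 and Slc18a2, all with a peak in every library, are also on the mast cell marker list given below. Gata2, of the Kit regulators, is on that list too, so these lists are not separate observations. Partners and regulators of the Mitf protein held peaks in 5 of 22 cases (22.7%). Beside the same shares of 14.1% and 21.5%, this was near the second and is no feature of these genes. The tallest were in Ywhae, a 14-3-3 protein (0, 5 and 8 units), Mtor (0, 5 and 0), Smarca4, a chromatin remodelling ATPase (5, 0 and 3), and Xpo1, a nuclear exporter (4, 4 and 0), level with Zeb2 (4, 0 and 0). None of the 22 held a peak in all 3 libraries, which 3.16% of all protein-coding genes did, so this is no feature of them either.

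**Figure D4:**
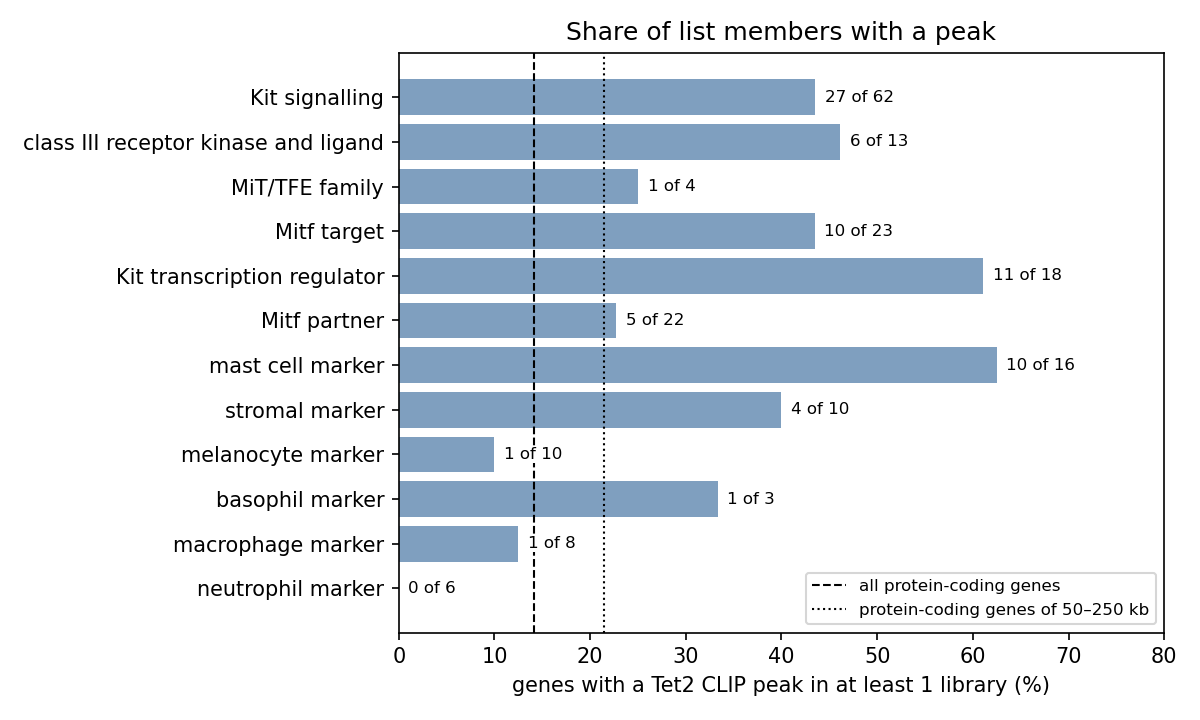
Share of the genes of each list that held a peak in at least 1 library (x axis, percent), with the number of genes at the bar end. The dashed line is the share among all protein-coding genes (14.1%) and the dotted line the share among those with spans of 50000 to 250000 nt (21.5%). The mast cell markers (10 of 16) and the Kit transcription regulators (11 of 18) had the highest shares, and no neutrophil marker held a peak.

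The labelled cell type was set against marker genes, read as peaks because RNA levels were not analysed here. Of 16 mast cell markers, 10 held a peak. Without Kit and Mitf, which are on that list, 8 of 14 did (57.1%). Of all protein-coding genes 14.1% did, and of those with spans of 50000 to 250000 nt 21.5%. The heights of these 8 markers summed to 253, 252 and 210 units in replicates 1, 2 and 3. Most of these lay in Csf2rb2 (117, 120 and 94 units) and Gata2 (83, 79 and 68). Csf2rb2, an interleukin-3 receptor chain, had the tallest peak (29, 27 and 20 units). The marker lists were chosen with earlier results of these data known, so their shares do not test the cell type. Fcer1a, Ms4a2 and Fcer1g, the chains of FcεRI, and the proteases Cma1, Tpsab1 and Mcpt4 held none. Melanocytes are the other main lineage that uses Kit and Mitf, and 1 of their 10 markers held a peak, Pmel, at the peak shared with Cdk2, while Tyr, Tyrp1 and Dct held none. Basophil markers had 1 of 3 (Cd200r3, 4 units in replicate 3), macrophage markers 1 of 8 (Adgre1, 3 units in replicate 2) and neutrophil markers 0 of 6. Among melanocyte and macrophage markers the shares were 10.0% and 12.5%, near the background, and the lists are short.

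Markers of stromal cells, the usual source of stem cell factor, are given beside Kitl. Of 10, 4 held a peak (40.0%), against 14.1% of all protein-coding genes and 21.5% of those with spans of 50000 to 250000 nt. The heights of these 4 markers summed to 62, 34 and 39 units in replicates 1, 2 and 3. Col3a1 reached 17, 7 and 9 units, Col1a1 reached 7, 4 and 6 units and Col1a2 reached 4, 3 and 5 units, all fibrillar collagen chains found in each library. Pdgfrb held its 1 peak, and Pdgfra, Cxcl12, Dcn, Lepr, Lum and Vcam1 held none. Whether any Kitl or collagen RNA came from other cells in the culture was not tested, and in a bulk pull-down the number of cells, the RNA per cell and the binding per RNA cannot be told apart.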

How the data were processed

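Tet2 CLIP peaks of mouse bone marrow derived mast cells were taken from 3 replicate libraries. Per the submitters' processing notes, cutadapt 1.9, STAR 2.4.0i and the build mm10 were used, and the peak caller, per the labels' protocols, looks for a valley on either side of each peak. The sources used here do not give its version or thresholds. The authors deposited, per library, the start, end and normalized height (a signal that sums to 1) of each peak. Heights were turned into whole units of their step (largest departure 9.53e-06 of a unit). Starts were read as 0-based, and coordinates are printed 1-based.

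Spans and starts came from RefSeq tables of GRCm38.p6, with 49980 spans and no exons. A peak belonged to each span that held its midpoint, and peaks of different libraries were joined into a locus when they shared at least 1 nt. The genes and the 12 lists were chosen with earlier results of these data known. All listed symbols were matched. The 4 genes named per list were those with the tallest peak, ties in alphabetical order, beside Kit, Kitl and Mitf. A few others are named as examples, chosen after their values were seen. The design text calls the replicates biological without naming animals or cultures, so the SD may be technical in part. Assignment and locus building were tested on simulated peaks. Alternatives covered assignment, minimum height, sharing, coordinate base and leaving out each library. Python 3.11.15, pandas 2.3.3, NumPy 2.4.6 and SciPy 1.17.1 were used.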

Additional observations from a re-analysis of the deposited data

How the results depend on the processing

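Of 240 alternative values, 193 stayed within the spread between libraries or within 1.5 times the count. The SD exceeded the mean for the number of peaks in Kit (3.33, SD 4.04) and in Mitf (0.333, SD 0.577). It also did so for the summed height in units of Kit (15.3, SD 16.2) and Mitf (1, SD 1.73). The same held for the Mitf height in percent of the library (0.00648, SD 0.0112). No fall in these values could leave the spread, and the Mitf mean of 0 peaks at a minimum of 4 units lay within it. Their alternatives therefore do not show stability. Leaving out 1 library at a time gave a mean of 1 to 4.5 Kit peaks per library, lowest without replicate 1, against 3.33 with all. It gave a tallest Kit peak of 7 to 12 units and a tallest Mitf peak of 0 to 3 units. Kit and Kitl loci in over 1 library were 0 to 1 each. The Kit locus was lost without replicate 1 or 2, and the Kitl locus without replicate 1 or 3. The background share of genes became 10.9% to 12.1%. Kit signalling genes numbered 16 to 25, lowest without replicate 1. MiT/TFE family genes, and basophil and macrophage markers, numbered 0 to 1.

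With midpoints within 100 or 200 nt taken as shared, Kit had 2 shared loci, the added one being the pair near the start. The mean number of Kit peaks per library became 1.33 with a minimum of 4 units and 1 with a minimum of 5. With peaks of at least 4 units, no Kit or Kitl locus was shared (0 each), and Kitl had 0 peaks, 0 units and 0% of the height. The background was then 8.74%, with 17 Kit signalling, 1 class III, 0 MiT/TFE and 0 macrophage genes. With at least 5 units, Kit and Kitl again had 0 shared loci, Kitl had 0 peaks, 0 units and 0%, and the background was 5.65%. The lists then held 12 Kit signalling, 1 class III, 0 MiT/TFE, 7 Kit regulator, 3 Mitf partner, 0 basophil and 0 macrophage genes. Fewer peaks enter under a higher minimum. Requiring a peak in all 3 libraries left 5 Kit signalling, 2 class III, 0 MiT/TFE, 6 Kit regulator, 0 Mitf partner, 0 basophil and 0 macrophage genes. Of all protein-coding genes, 3.16% held a peak in all 3. Spans widened by 5000 nt gave a background of 18.2%, and spans of 50000 to 250000 nt 21.5%. Basophil, macrophage and neutrophil alternatives were added after seeing the data. No paired analysis was possible because the libraries form 1 group. Depth is unknown, so the absence of a peak in a library does not show that no RNA was recovered there.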
